A study of Mus musculus with 16 samples.

Results

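The comparison described here is that of primary mouse hepatocytes given a defined lipid mixture with hepatocytes left untreated. It holds 8 of the 16 libraries of the series, all those labelled as treated with lipid alone or as untreated, 4 in each group. Hepatocytes of wild-type mice were cultured overnight in DMEM with 5% FBS and insulin-transferrin-selenium, which the untreated cells received as well. The mixture was lipid mixture 1, diluted 10-fold from a stock of 2 µg/ml arachidonic acid, 10 µg/ml each of palmitic, stearic, myristic, oleic and linoleic acid and 0.22 mg/ml cholesterol, so that saturated, monounsaturated and polyunsaturated fatty acids came together with sterol. No vehicle control is named in the labels, and the effect of a single component cannot be told apart from that of the whole mixture. The other 8 libraries came from cells given 10 mM itaconate, alone or with the lipid mixture (4 and 4), and were used for the spread in the model and for a second measurement of the lipid response. Each library carries a replicate letter from A to D, and the libraries of 1 letter moved together, so that treated and untreated libraries were compared within letters. The labels do not say whether the letters stand for separate animals, and p values measure the spread between these libraries only.

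A hepatocyte senses the lipids that reach it. Cholesterol holds the precursor of SREBP2 in the endoplasmic reticulum and so turns down the genes of its own synthesis and uptake, polyunsaturated fatty acids do the same to SREBP1 and the desaturases, and fatty acids can act as ligands of PPARα, the nuclear receptor that drives fatty acid oxidation. Surplus fatty acids are esterified to triglyceride, stored in lipid droplets or exported as very-low-density lipoprotein. Hepatocytes also answer to interferon and NF-κB signals, with induction of antiviral genes, chemokines and acute phase proteins, and isolation and culture by themselves set off part of this response.

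The total of expected counts ran from 22346049 to 28619798 in untreated and from 23562859 to 28558693 in lipid-treated libraries, and transcripts of the mitochondrial genome took 3.63 to 4.14% and 3.46 to 4.70% of them. All 14 hepatocyte markers were above 1 CPM (counts scaled to the library size with TMM factors), and *Alb*, the serum albumin gene, averaged 35171 ± 6188 CPM without and 30872 ± 4662 CPM with lipid (mean ± SD, n = 4). Among markers of other liver cells, 5 of 17 for macrophages, 10 of 14 for stellate cells, 4 of 13 for endothelial cells and 5 of 10 for cholangiocytes were under 1 CPM, and *Cftr* was at 0 in all 8 libraries. The summed level of the macrophage markers was 585 to 695 CPM in untreated and 532 to 707 CPM in lipid-treated libraries, most of it from *Cd14* and *Cd68*. Without these 2 genes the sums were 83.5 to 102 and 40.5 to 57.0 CPM, and they did not overlap. The largest part of this remainder was *Mpeg1*, with a mean of 50.8 of 92.5 CPM in untreated and 16.1 of 45.9 CPM in lipid-treated libraries. The separation thus rests in good part on 1 gene. The summed cholangiocyte markers, most of them osteopontin (*Spp1*), ran from 738 to 1318 and from 511 to 760 CPM, those of stellate cells from 34.9 to 42.1 and from 25.99 to 28.5 CPM, and those of endothelial cells from 31.9 to 48.3 and from 41.2 to 52.5 CPM. Much of the lower stellate sum came from 1 gene, *Prelp*, at 7.04 to 14.5 CPM in untreated and 0.472 to 1.42 CPM in lipid-treated libraries. In bulk RNA, fewer cells of a type cannot be told apart from less RNA per cell.

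Of 55450 genes, 11675 averaged 1 CPM or more in the series and were tested. With lipid, 2779 genes rose (23.8% of those tested) and 2767 fell (23.7%) at an adjusted p under 0.05. Most changes were small, with a median absolute log2 fold change of 0.33 among the genes that changed. At least 1.5-fold changes were found for 630 genes that rose (5.4%) and 512 that fell (4.39%), and the median over all genes tested was 0.0047. For 3793 genes, or 32.5%, the 4 CPM values of one group did not overlap with those of the other. This share stands beside every statement below that the groups did not overlap for a gene. The balance between rises and falls depended on the scaling: with library totals in place of TMM factors the median moved to 0.08, and 3870 genes rose against 1782 that fell, so that where the balance of a group turned, or its count moved, the count under that scaling is in most cases given below.

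**Figure D1:**
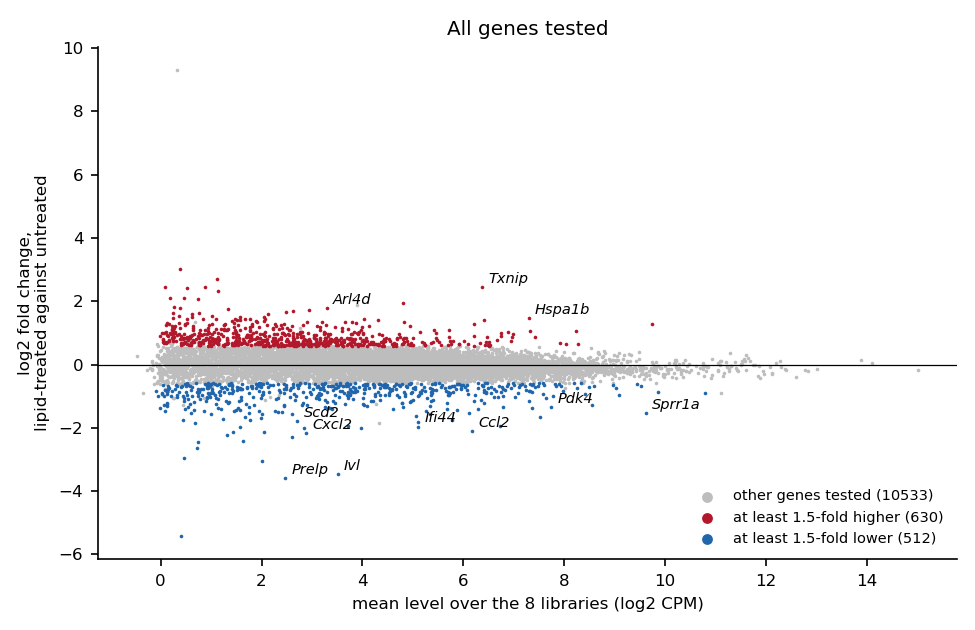
Log2 fold change between lipid-treated and untreated hepatocytes against the mean level over the 8 libraries, on a log2 CPM scale, for 11675 genes. Each point is a gene, and colours mark the 630 genes that were at least 1.5-fold higher and the 512 that were at least 1.5-fold lower at an adjusted p under 0.05. *Txnip* stands above, and *Prelp* and *Ivl* below, genes of like abundance.

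Genes of cholesterol synthesis fell as a group. Of 21 enzymes tested, 16 fell and 1 rose, with a median log2 fold change of −0.54 (0.0047 over all genes), and 9 fell at least 1.5-fold. *Hmgcs1*, the cytosolic HMG-CoA synthase (plus strand of chromosome 13 from 119690379 to 119708260), stood at 298, 282, 225 and 274 CPM in untreated libraries A to D and at 128, 122, 115 and 146 CPM in lipid-treated libraries A to D. It was thus 2.10-fold lower (log2 fold change −1.07, SE 0.0843, adjusted p = 1.25e-07, SE being the standard error), with no overlap between the groups. *Idi1*, the isopentenyl diphosphate isomerase, fell by the most in the list, from 139, 124, 97.6 and 114 CPM to 57.1, 50.6, 36.8 and 61.4 CPM (log2 fold change −1.21, SE 0.101, adjusted p = 2.29e-07), and *Lss*, which closes squalene epoxide into lanosterol, fell by 1.12 on the log2 scale. The fall reached from *Acat2* at the first step (−0.85) through *Fdft1*, the squalene synthase (−0.75), to *Cyp51*, the lanosterol demethylase (−0.87).

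Some members of the pathway did not follow. *Sqle*, the squalene epoxidase, was at 150.1, 124, 138 and 143 CPM in untreated and 132, 124, 179 and 171 CPM in lipid-treated libraries, with overlap (log2 fold change 0.12, SE 0.0912, adjusted p = 0.292). *Dhcr7*, which completes the conversion of 7-dehydrocholesterol to cholesterol, was the member that rose, from 87.4, 72.2, 54.5 and 73.9 CPM to 122, 104, 76.5 and 95.3 CPM (log2 fold change 0.47, SE 0.124, adjusted p = 0.00585). It was higher in each of the 4 letters, although the groups overlapped.

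Regulators of sterol balance fell with the enzymes. *Insig1*, the SREBP-SCAP anchor of the endoplasmic reticulum and itself an SREBP target (plus strand of chromosome 5 from 28071363 to 28078662), dropped from 237, 265, 219 and 225 CPM to 89.9, 86.5, 87.3 and 99.6 CPM, a 2.60-fold change (log2 fold change −1.38, SE 0.0651, adjusted p = 1.08e-09) with no overlap. Both transcription factor genes were lower, *Srebf2* by 0.47 and *Srebf1* by 0.67 on the log2 scale. In all, 5 of 12 genes of SREBP2 control and sterol uptake fell and 0 rose (median −0.14), and with library totals 5 fell and 2 rose. *Scap* and *Soat2* did not pass the test (0.08 and 0.15).

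Targets of LXR, the receptor for oxysterols, did not rise. Of 8 tested, 4 fell and 0 rose (median −0.27). *Abca1*, the exporter of cholesterol to apolipoprotein A-I, was at 167, 167, 128 and 149 CPM in untreated and 141, 134, 106 and 123 CPM in lipid-treated libraries and fell in each letter (log2 fold change −0.28, SE 0.0539, adjusted p = 5.63e-04). *Abcg5*, a subunit of the biliary sterol transporter, fell by 0.67 at a low level of 4.77 ± 1.24 CPM in untreated cells. *Cyp7a1*, the first enzyme of bile acid synthesis, and *Abcg1* were under the filter, at no more than 0.515 and 1.12 CPM in any library. Among 17 genes of bile acid synthesis and transport, 3 rose (17.6%) and 5 fell (29.4%), beside 23.8% and 23.7% of all genes tested. This balance turned to 4 rises and 3 falls with library totals, and the falls numbered 3 without untreated replicate C or lipid-treated replicate A or B. *Cyp8b1*, the sterol 12α-hydroxylase, rose from 10.4, 9.39, 8.17 and 8.12 CPM to 18.4, 15.2, 10.6 and 11.6 CPM (log2 fold change 0.60, SE 0.0850, adjusted p = 3.79e-05), and *Akr1d1*, the bile acid 5β-reductase, fell by 0.53.

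**Figure D2:**
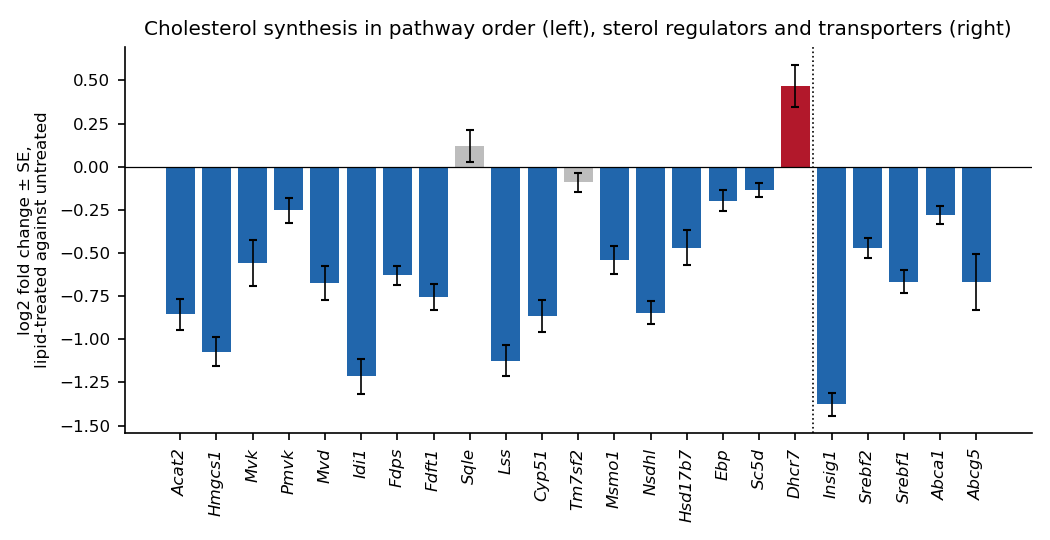
Log2 fold change with its standard error, lipid-treated against untreated, for 18 cholesterol synthesis genes in pathway order and 5 regulators and transporters to the right of the dotted line. Blue bars fell and red bars rose at an adjusted p under 0.05, and grey bars (*Sqle* and *Tm7sf2*) did not pass. Only *Dhcr7* is red.

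SREBP binds a sterol regulatory element, whose core was written here as TCACNCCAC, where N is any base. It was searched on both strands of RefSeq promoter windows of GRCm38.p6, from 250 bases before to 50 bases after a gene's start. A match was found in 1.5% of 8991 tested genes with a window, in 1 of 16 cholesterol synthesis genes and in 0 of 6 genes of SREBP2 control and sterol uptake. That 1 was *Hmgcs1*, so that the match is no trait of the group. Its stretch around the match, at chr13:119690174-119690262 on the plus strand, is shown with the match in capitals.
Hmgcs1: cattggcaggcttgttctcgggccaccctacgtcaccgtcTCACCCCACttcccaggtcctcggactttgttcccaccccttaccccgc
The match lies 137 to 129 bases before the start. A window without these letters says nothing about the factor.

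Fatty acid synthesis split. *Acaca*, the acetyl-CoA carboxylase of the cytosol (plus strand of chromosome 11 from 84129672 to 84401651), rose 2.63-fold, from 48.4, 47.3, 44.4 and 48.2 CPM to 126, 104, 128 and 138 CPM (log2 fold change 1.39, SE 0.103, adjusted p = 6.65e-08), with the groups far apart. *Fasn*, the fatty acid synthase that uses its product, went the other way, from 217, 200.1, 214 and 209 CPM to 185, 156, 165 and 180.3 CPM (log2 fold change −0.29, SE 0.0425, adjusted p = 4.79e-05). Of 12 genes in the list, 3 rose and 6 fell (median −0.17). *Mlxipl*, the gene of the carbohydrate-responsive factor ChREBP, rose by 0.29 on the log2 scale, a call that was lost without untreated replicate A, C or D or lipid-treated replicate A (0.24 to 0.27).

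Desaturases and elongases fell (9 of 15 tested, 0 rose, median −0.25), with 7 falls and 3 rises under library totals. *Scd2*, a stearoyl-CoA desaturase of low level in adult liver, was 3.48-fold lower, from 9.12, 8.41, 11.3 and 11.8 CPM to 2.56, 2.67, 2.71 and 3.74 CPM (log2 fold change −1.80, SE 0.188, adjusted p = 2.16e-06). *Scd1*, the main hepatic form, was at 5558, 5910, 3741 and 4303 CPM and at 4817, 5158, 2816 and 3373 CPM and fell by less, with overlap (log2 fold change −0.29, SE 0.0765, adjusted p = 0.00513). *Fads1*, the Δ5-desaturase that makes arachidonic acid, fell from 398, 418, 480.5 and 496 CPM to 277, 270.01, 251 and 300.01 CPM (log2 fold change −0.70, SE 0.0554, adjusted p = 1.27e-07), and *Fads2*, the Δ6-desaturase, by 0.56. Both stood below every untreated library in every lipid-treated one. The elongase *Elovl6* did not pass the test (log2 fold change 0.14, SE 0.0559, adjusted p = 0.0568).

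PPARα targets fell more often than they rose, with 10 of 22 lower, 4 higher and a median of −0.27. *Pdk4*, the kinase that shuts off pyruvate dehydrogenase when fat is burned (minus strand of chromosome 6 from 5483351 to 5496309), stood at 235, 333, 334 and 327 CPM in untreated and at 98.3, 138, 133 and 117 CPM in lipid-treated libraries, 2.53-fold lower (log2 fold change −1.34, SE 0.0865, adjusted p = 1.58e-08). *Angptl4*, an inhibitor of lipoprotein lipase, fell from 126, 145, 120.1 and 131 CPM to 74.1, 68.3, 56.3 and 59.9 CPM (log2 fold change −1.02, SE 0.0721, adjusted p = 4.47e-08). In both genes all 4 lipid-treated libraries lay below all 4 untreated ones, and 32.5% of all genes tested had no overlap between the groups. The 4 that rose were *Txnip*, *Creb3l3*, *Cidec* and *Acadm*, which are described with other groups below. *Ehhadh*, the peroxisomal bifunctional enzyme, fell by 0.79. *Cyp4a10*, a fatty acid ω-hydroxylase (log2 fold change −0.15, SE 0.0633, adjusted p = 0.0614), and *Ppara* itself (log2 fold change 0.31, SE 0.161, adjusted p = 0.126) did not pass. *Fgf21*, a fasting hormone under the same receptor, was under the filter at no more than 1.95 CPM.

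The oxidation enzymes followed with smaller shifts. Of 19 genes of mitochondrial β-oxidation, 13 fell and 2 rose (median −0.25, none by 1.5-fold). *Cpt1a*, the carnitine palmitoyltransferase that admits fatty acids to the mitochondrion, stood at 34.2, 31.2, 33.9 and 41.4 CPM and at 30.7, 25.7, 21.9 and 22.3 CPM (log2 fold change −0.49, SE 0.0929, adjusted p = 5.23e-04). *Acadl*, the long-chain acyl-CoA dehydrogenase, fell by 0.49, whereas the medium- and short-chain forms *Acadm* and *Acads* rose by 0.16 and 0.18. In the peroxisome 10 of 16 fell and 2 rose, among them *Acox2*, the branched-chain acyl-CoA oxidase, from 69.1 ± 4.02 to 36.7 ± 1.58 CPM (SD, n = 4; log2 fold change −0.92, SE 0.0534, adjusted p = 8.59e-09). Fatty acid uptake and activation had 10 of 14 genes lower and 0 higher, with *Cd36* at −0.47, *Acsl4*, which prefers arachidonic acid, at −0.47 and *Acsl1* at −0.43. With library totals as the scaling, the falls numbered 11 of 19, 7 of 16 and 6 of 14, in the same direction. For uptake and activation they numbered 5 without untreated replicate C or lipid-treated replicate B and 6 without lipid-treated replicate A.

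Storage genes fell too. *Plin2*, the main lipid droplet coat protein of hepatocytes, was at 976, 1222, 1302 and 1267 CPM without and 654, 728, 564 and 675 CPM with lipid (log2 fold change −0.85, SE 0.0833, adjusted p = 1.11e-06), with no overlap. *Pnpla2*, the adipose triglyceride lipase, fell by 0.61 and *Plin4* by 0.97, while *G0s2*, an inhibitor of that lipase, rose by 0.61. *Cidec*, which fuses droplets, rose by 0.34, and lost its call without any of 6 of the 8 libraries (0.22 to 0.37, all but lipid-treated replicates A and B). In the droplet list, 7 of 15 fell and 2 rose. Of the triglyceride synthesis genes, 8 of 12 fell and 0 rose (median −0.26), led by *Lpin1*, a phosphatidate phosphatase and coactivator of PPARα, from 61.5, 74.9, 71.6 and 70.03 CPM to 32.3, 37.5, 34.2 and 43.8 CPM (log2 fold change −0.91, SE 0.0989, adjusted p = 3.01e-06).

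Some genes of lipoprotein export rose. *Mttp*, the triglyceride transfer protein that loads apolipoprotein B (minus strand of chromosome 3 from 138089854 to 138144968), was 2.06-fold higher, from 73.6, 81.1, 78.9 and 77.1 CPM to 139, 156, 175 and 168 CPM (log2 fold change 1.04, SE 0.103, adjusted p = 1.28e-06). *Apoa5*, an activator of plasma triglyceride clearance, rose from 111, 86.9, 85.9 and 85.7 CPM to 162, 172, 143 and 143 CPM (log2 fold change 0.75, SE 0.0696, adjusted p = 6.54e-07), and *Apoa4* by 0.33. *Creb3l3*, the membrane-bound hepatocyte factor that induces these apolipoproteins, went from 101, 113, 105 and 93.2 CPM to 215, 243, 211 and 191 CPM (log2 fold change 1.06, SE 0.0364, adjusted p = 3.10e-11). None of these 4 genes overlapped between groups, which held for 32.5% of all genes tested. *Apob* did not pass (log2 fold change −0.044, SE 0.0766, adjusted p = 0.660), and *Apoa2*, *Apoe* and *Apof* fell by 0.27, 0.19 and 0.44. Over all genes tested 23.8% rose and 23.7% fell, against 18.8% each in the list of 16, which held 3 rises and 3 falls (median −0.084). The falls numbered 6 without untreated replicate B and 5 without lipid + itaconate replicate B.

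Among all genes that averaged 5 CPM or more, *Txnip* rose by the most. *Txnip*, which encodes a thioredoxin-binding arrestin that limits glucose uptake (plus strand of chromosome 3 from 96557957 to 96561883), measured 30.1, 29.6, 23.5 and 21.1 CPM in untreated and 153, 113, 144 and 144 CPM in lipid-treated libraries, a 5.42-fold rise (log2 fold change 2.44, SE 0.166, adjusted p = 3.03e-08). A list of 19 genes that respond to carbohydrate through ChREBP and its paralogue MondoA, *Txnip* among them, was put together after values were seen. It is given as values only. Of the 19, 13 rose and 3 fell (median 0.45), and in itaconate-treated cells 8 rose and 3 fell (median 0.17). *Arrdc4*, an arrestin like *Txnip*, rose by 0.73, and *Klf10*, a Krüppel-like repressor, rose from 32.8, 34.05, 33.9 and 33.2 CPM to 64.2, 58.3, 78.4 and 82.8 CPM (log2 fold change 1.08, SE 0.0917, adjusted p = 2.76e-07). *Acaca* belongs to the list too, and *Fasn* was its lowest member at −0.29.

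In glycolysis as a whole, 7 of 20 genes rose and 4 fell. *Aldoc*, an aldolase, rose by 0.75, while *Ldha*, the lactate dehydrogenase, fell by 0.43 and *Pgam1* by 0.35. The gluconeogenic genes moved apart: *G6pc*, the glucose-6-phosphatase, rose from 8.98, 5.78, 5.87 and 6.77 CPM to 13.3, 11.04, 9.07 and 8.86 CPM (log2 fold change 0.62, SE 0.204, adjusted p = 0.0204), mitochondrial *Pck2* rose by 0.80, and cytosolic *Pck1* fell from 50.7, 20.8, 32.9 and 29.7 CPM to 24.5, 13.4, 25.7 and 21.9 CPM (log2 fold change −0.61, SE 0.172, adjusted p = 0.00852). The groups overlapped for all 3 genes, and *G6pc* lost its call without untreated replicate B (0.49) or lipid-treated replicate C (0.56). In the citric acid cycle 6 of 18 rose and 1 fell, which was *Suclg2* (−0.27). Nuclear genes of the respiratory chain gave 7 rises and 11 falls of 72 (median −0.041), which became 14 and 2 with library totals. These were 9.72% and 15.3% of the list, both under the shares of all genes tested.

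**Figure D3:**
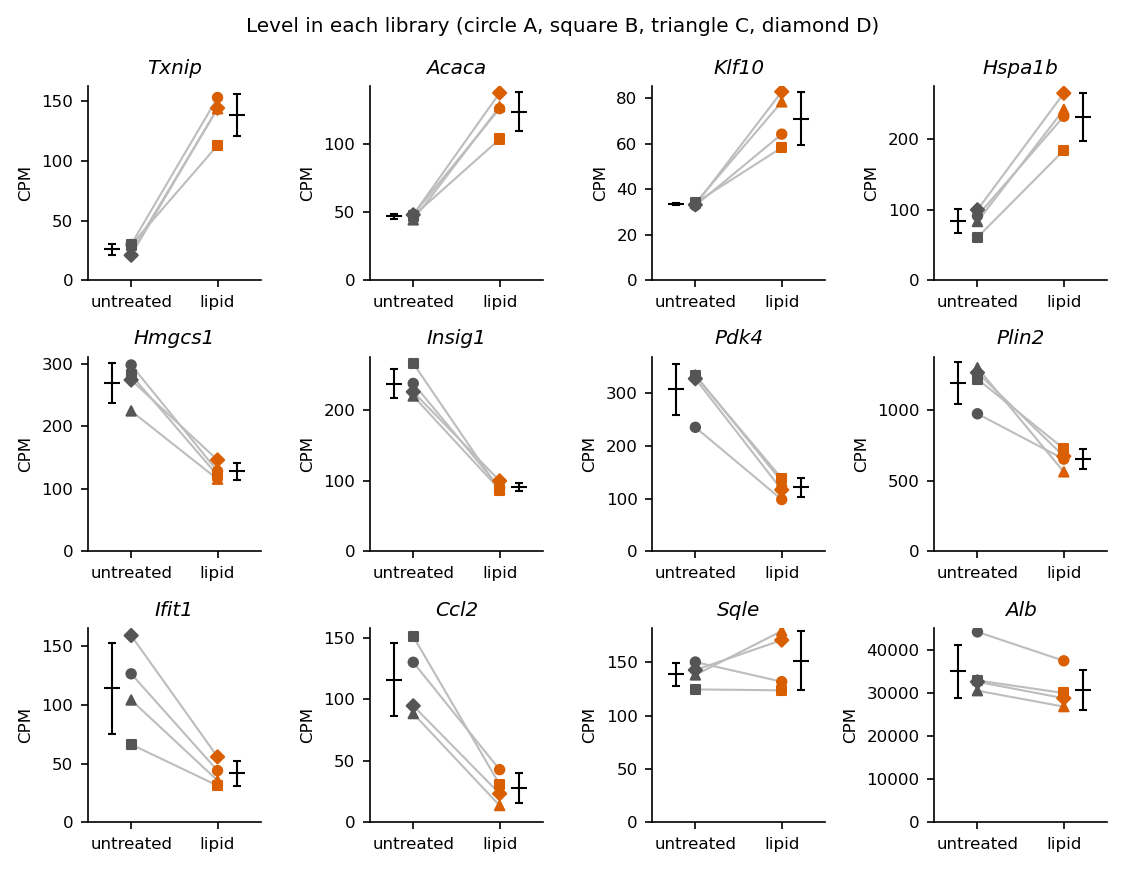
CPM in each library for 12 genes, untreated on the left and lipid-treated on the right, with lines joining libraries of 1 letter and, beside them, the mean ± SD (n = 4). Axes start at 0. *Txnip*, *Acaca*, *Klf10* and *Hspa1b* are higher and *Hmgcs1*, *Insig1*, *Pdk4*, *Plin2*, *Ifit1* and *Ccl2* lower in all 4 letters, while *Sqle* overlaps, and *Alb* is lower in each letter with overlap between groups.

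Stress programs went in opposite directions. Chaperones of the endoplasmic reticulum and genes of the unfolded protein response fell, 20 of 23 with 1 rise (median −0.40). *Sdf2l1*, an ER protein induced by misfolding, was at 36.5, 25.5, 39.999 and 52.6 CPM and at 18.8, 13.9, 11.3 and 22.5 CPM (log2 fold change −1.20, SE 0.125, adjusted p = 2.04e-06). *Eif2ak3*, the sensor PERK, fell by 0.82 and *Herpud1* by 0.69, *Hspa5*, the chaperone BiP, fell by 0.36, and the gene that rose was *Ern1*, the sensor IRE1α (0.37).

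Heat shock genes rose, 12 of 19 with 1 fall (median 0.20). The inducible Hsp70 genes led them. *Hspa1b* was at 91.4, 60.95, 83.4 and 99.98 CPM and at 232, 184, 242 and 265 CPM (log2 fold change 1.47, SE 0.0680, adjusted p = 8.95e-10), and *Hspa1a* rose from 28.5, 14.01, 11.05 and 12.9 CPM to 60.1, 34.6, 32.3 and 34.3 CPM (log2 fold change 1.33, SE 0.106, adjusted p = 1.51e-07). These neighbouring genes are near copies, so that the split of reads between them is uncertain, but both lay apart between groups. *Hspb1*, a small heat shock protein, rose by 0.51, and *Hspa9*, the mitochondrial Hsp70, was the one that fell (0.21 on the log2 scale). Proteasome subunits rose by little, 16 of 31 with 0 falls (median 0.11, highest *Psma7* at 0.30), and 24 rose with library totals, against 8 without untreated replicate B, 9 without lipid-treated replicate B and 10 without untreated replicate D.

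The integrated stress response was higher in part, with 11 of 23 genes up and 1 down (median 0.20). *Aldh1l2*, the mitochondrial formyltetrahydrofolate dehydrogenase, rose by the most in the list, from 8.70, 11.3, 7.11 and 10.8 CPM to 17.2, 16.4, 18.5 and 21.4 CPM (log2 fold change 0.96, SE 0.124, adjusted p = 1.65e-05), and *Mthfd2* rose by 0.74. *Asns*, the asparagine synthetase, was at 35.1 ± 3.43 and 50.1 ± 2.96 CPM (SD, n = 4; log2 fold change 0.52, SE 0.0918, adjusted p = 2.98e-04), and *Trib3* rose by 0.39. The factors upstream did not pass, *Atf4* at 297 ± 13.9 and 299.5 ± 18.8 CPM (SD, n = 4; log2 fold change 0.013, SE 0.0482, adjusted p = 0.846) and *Ddit3*, the factor CHOP (log2 fold change 0.067, SE 0.0868, adjusted p = 0.550). Of 26 Nrf2 targets 14 fell and 3 rose (median −0.14, 9 and 5 with library totals): *Gclc*, the catalytic subunit of glutathione synthesis, fell by 0.67 and *Txnrd1* by 0.46, whereas *Srxn1*, the sulfiredoxin, rose by 0.38.

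The interferon response fell without exception among its tested genes. All 29 were lower, 26 of them by at least 1.5-fold, with a median log2 fold change of −0.96 and a range from −1.99 (*Ifit3b*) to −0.30 (*Irf9*). The share of all genes tested that fell by at least 1.5-fold was 4.39%. *Ifit1*, which binds foreign RNA caps (plus strand of chromosome 19 from 34640871 to 34650009), measured 126, 66.4, 104 and 159 CPM in untreated and 44.1, 31.3, 35.7 and 55.8 CPM in lipid-treated libraries (log2 fold change −1.42, SE 0.0865, adjusted p = 9.08e-09), and no value of one group reached the other. *Ifi44*, another induced gene, fell from 58.05, 43.1, 44.7 and 73.4 CPM to 14.6, 12.7, 10.2 and 18.4 CPM (log2 fold change −1.96, SE 0.152, adjusted p = 1.09e-07), and *Oasl2*, of the oligoadenylate synthetase family, from 23.01, 18.6, 13.02 and 28.4 CPM to 4.66, 5.33, 3.44 and 8.15 CPM (log2 fold change −1.94, SE 0.217, adjusted p = 4.28e-06). *Ifit3* and *Ifit3b*, near copies that share reads, fell by 1.74 and 1.99. The factors that transmit the signal were lower too, *Stat2* at −0.60 and *Irf7* at −1.14. The GTPases *Gvin1* and *Tgtp1*, named for the size of their fall, were 3.14-fold and 3.49-fold lower.

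Interferon factors bind an element whose core was written as TTCNNTTTC and searched in the same windows, on both strands and with overlaps allowed. It was present in 17 of 24 interferon genes with a window (70.8%), in 8.27% of 8991 tested genes with a window and in 8.56% of all 32851 windows. The stretches around the matches are shown for the genes described above, since they share both the fall and the motif. *Ifit1* is shown at chr19:34640755-34640838, *Ifit3* at chr19:34583349-34583460 and *Ifit3b* at chr19:34607745-34607856, all on the plus strand, and *Cxcl10* at chr5:92349069-92349127 on the minus strand. Capitals mark the matches.
Ifit1: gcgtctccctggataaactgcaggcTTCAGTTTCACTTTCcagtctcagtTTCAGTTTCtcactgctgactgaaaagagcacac
Ifit3: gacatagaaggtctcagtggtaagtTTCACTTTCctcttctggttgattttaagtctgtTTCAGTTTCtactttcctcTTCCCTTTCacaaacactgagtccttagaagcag
Ifit3b: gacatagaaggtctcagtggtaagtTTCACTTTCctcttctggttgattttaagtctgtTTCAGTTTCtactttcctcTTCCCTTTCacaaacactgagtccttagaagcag
Cxcl10: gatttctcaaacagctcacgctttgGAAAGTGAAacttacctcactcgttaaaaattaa
The windows of *Ifit1*, *Ifit3* and *Ifit3b* hold 3 matches each. In *Ifit1* the first lies 109 bases before the start, and 2 of the 3 overlap. In *Cxcl10* the single match is on the opposite strand, 213 to 205 bases before the start. A match is a description of the letters and not a bound site.

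Antigen presentation by MHC class I, which interferon also raises, fell by less, 8 of 13 with 1 rise (median −0.34). *Tapbp*, the tapasin gene, fell by 0.50, *Tap1*, the peptide transporter, by 0.46 and *Psmb10* of the immunoproteasome by 0.44, and the class I heavy chain *H2-D1* rose by 0.15.

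Chemokines and genes of NF-κB signalling fell as well, 16 of 20 with 1 rise (median −0.55, 10 at least 1.5-fold lower). *Ccl2*, which recruits monocytes (plus strand of chromosome 11 from 82035571 to 82037453), stood at 130.2, 151, 88.5 and 94.8 CPM in untreated and at 42.9, 30.9, 13.7 and 23.4 CPM in lipid-treated libraries, 4.26-fold lower (log2 fold change −2.09, SE 0.230, adjusted p = 3.54e-06). *Cxcl1* and *Cxcl2*, which recruit neutrophils, fell from 62.2, 85.1, 48.2 and 47.3 CPM to 27.7, 25.7, 14.2 and 15.3 CPM (log2 fold change −1.56, SE 0.109, adjusted p = 3.92e-08) and from 12.05 ± 4.32 to 2.71 ± 1.16 CPM (SD, n = 4; log2 fold change −2.17, SE 0.199, adjusted p = 5.91e-07). All 3 genes separated the groups. *Cxcl10*, which both lists hold, fell from 170.3, 134, 156 and 172 CPM to 65.1, 53.1, 57.9 and 74.5 CPM (log2 fold change −1.34, SE 0.0467, adjusted p = 3.10e-11). The feedback inhibitors *Nfkbia* (−0.72) and *Tnfaip3* (−0.99) and the subunit *Nfkb1* (−0.41) were lower, and *Ccl5* was the one that rose (0.83), a call that was lost without untreated replicate A (0.67) or lipid-treated replicate A (0.72) or D (0.71).

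Acute phase proteins, made by hepatocytes under cytokines, fell in 14 of 23 cases and rose in 4 (median −0.21, 11 and 4 with library totals). Their log2 fold changes ran from −1.11 to 0.93, with 4 falls and 1 rise of at least 1.5-fold. *Saa3* was at 131, 120.05, 110.5 and 84.1 CPM and at 57.7, 51.9, 52.7 and 43.6 CPM (log2 fold change −1.11, SE 0.0674, adjusted p = 9.08e-09), and *Cp*, the copper-carrying ferroxidase, fell by 0.89. *Apcs*, serum amyloid P, fell by 0.87. *Saa1*, whose near copy *Saa2* can share its reads, fell by 0.23. *Socs3*, the feedback inhibitor of interleukin 6 signalling, fell by 0.77.

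Markers of macrophages were lower in part. Of 12 tested, 7 fell and 1 rose (median −0.37). *Mpeg1*, the pore protein of phagocytes that interferon also induces, was at 58.8, 47.4, 32.2 and 64.7 CPM in untreated and at 16.5, 20.2, 11.5 and 16.3 CPM in lipid-treated libraries (log2 fold change −1.63, SE 0.146, adjusted p = 4.46e-07). *Marco* fell from 10.3, 9.74, 12.3 and 8.33 CPM to 7.10, 6.87, 5.83 and 4.28 CPM, with no overlap (log2 fold change −0.76, SE 0.173, adjusted p = 0.00205). *Adgre1*, the F4/80 antigen, stood at 2.39, 2.77, 2.41 and 1.175 CPM and at 1.26, 1.28, 1.21 and 1.04 CPM. The complement genes *C1qa*, *C1qb* and *C1qc* fell by 0.66, 0.44 and 0.85, and *Cd14* fell by 0.31, a call that was lost without the replicate block. Other defining genes did not pass, among them *Clec4f* of Kupffer cells (log2 fold change −0.095, SE 0.221, adjusted p = 0.749), *Csf1r* (log2 fold change 0.01, SE 0.190, adjusted p = 0.982) and *Lyz2* (log2 fold change −0.01, SE 0.113, adjusted p = 0.953), and *Cd68* rose by 0.43. The part of the macrophage transcripts in the fall of the chemokine and interferon genes was not tested.

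**Figure D4:**
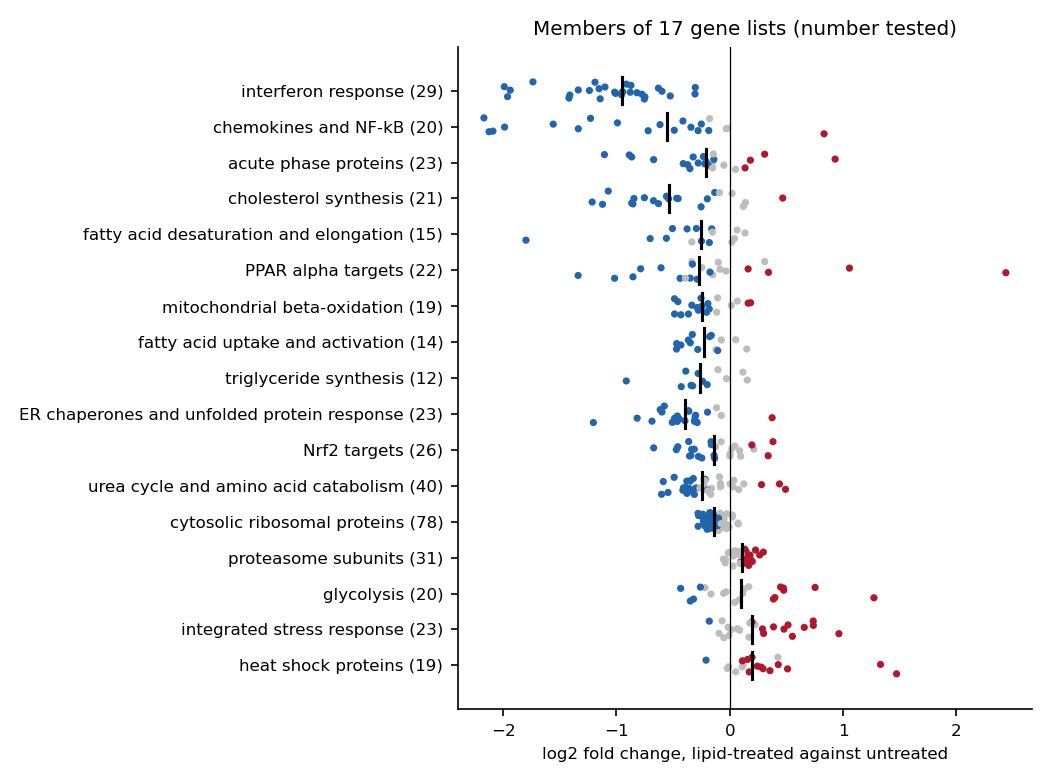
Log2 fold change, lipid-treated against untreated, for the tested members of 17 gene lists, with the number tested in parentheses. Each point is a gene, blue where it fell, red where it rose and grey where it did not pass, and the black bar is the list median, which runs from −0.96 for the interferon response to 0.20 for heat shock proteins and the integrated stress response.

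Hepatocyte markers shifted by small amounts. Of the 14 hepatocyte markers 5 fell and 1 rose (median −0.21), and with library totals 2 fell and 2 rose. The falls numbered 2 without lipid-treated replicate A or B, 3 without untreated replicate C and 10 without lipid-treated replicate C. *Alb* fell by 0.18 on the log2 scale (standard error 0.0568, adjusted p = 0.0142), in each letter but with overlap between groups, and lost its call without lipid-treated replicate A or B (−0.16 and −0.17). *Hnf4a*, the central hepatocyte factor, did not pass (log2 fold change 0.11, SE 0.0638, adjusted p = 0.171), and 7 of 19 hepatocyte transcription factors rose (36.8%) and 4 fell (21.1%). Of 30 cytochrome P450 genes of families 1 to 3, 4 rose (13.3%) and 9 fell (30.0%), and 5 and 5 with library totals. Over all genes tested 23.8% rose and 23.7% fell. *Cyp2b10*, the classical target of the receptor CAR, rose from 25.1, 34.99, 17.1 and 33.1 CPM to 60.96, 64.2, 41.4 and 64.4 CPM (log2 fold change 1.09, SE 0.0893, adjusted p = 1.82e-07), while *Cyp2e1* (log2 fold change −0.11, SE 0.0813, adjusted p = 0.268) and *Cyp3a11* (log2 fold change −0.14, SE 0.0796, adjusted p = 0.174) did not pass. Enzymes of the urea cycle and amino acid breakdown fell in 19 of 40 cases and rose in 3 (median −0.25), with *Hal* at −0.60 and *Gldc*, of glycine cleavage, at 0.49. Without lipid-treated replicate A 12 of the 40 fell.

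Genes that hepatocytes gain as they dedifferentiate in culture fell in 9 of 15 cases and rose in 0 (median −0.32). *Spp1*, osteopontin, was at 1044, 776, 588 and 476 CPM and at 513, 441, 283 and 236 CPM (log2 fold change −0.97, SE 0.0705, adjusted p = 5.39e-08), with overlap across letters but a fall in each. *Cd44* fell by 0.88 and *Sox9*, a biliary and progenitor factor, by 0.37. *Krt19* and the proliferation marker *Mki67* were under the filter, at no more than 0.547 and 0.249 CPM, and *Ccnd1* did not pass (log2 fold change 0.47, SE 0.254, adjusted p = 0.136). Cytosolic ribosomal proteins shifted down by a small amount, 44 of 78 with 0 rises (median −0.13, lowest *Rps2* at −0.28). With library totals 18 of the 78 fell and 1 rose.

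Smaller shifts were seen in other lists, whose counts stand beside 23.8% of all genes tested that rose and 23.7% that fell. Of 31 complement and coagulation genes 13 fell and 1 rose (median −0.11), and of 19 plasma carriers 10 fell and 2 rose (median −0.17), with *Cfb*, complement factor B, at −0.41 and *Serpina7*, the thyroxine-binding globulin, at −0.58. With library totals the falls numbered 8 and 4. Matrix and integrin genes were divided, 8 of 21 up and 7 down, from *Itga2* at −1.38 to *Lama5* at 0.88. Of 15 targets of YAP and SRF 5 fell and 1 rose, which was *Ccn1*, from 217, 186, 163 and 183 CPM to 288, 245, 329.7 and 328 CPM (log2 fold change 0.67, SE 0.0941, adjusted p = 3.60e-05). Genes of the lysosome (5 of 28 up, 7 down), of insulin signalling and FoxO (6 of 23 up, 8 down), of zinc and iron handling (6 of 19 up, 8 down) and of DNA replication (3 of 23 up, 5 down) had no common direction, and with library totals more rose than fell in the lysosome (9 and 6), insulin (8 and 7), zinc and iron (6 and 5) and DNA replication (6 and 3) lists. Fewer rose than fell among HIF targets (2 and 6 of 18) and immediate-early factors (2 and 8 of 20), also with library totals (2 and 6, 4 and 6). Of 19 clock genes 2 rose and 4 fell, which turned to 6 and 3 with library totals. Aminoacyl-tRNA synthetases gave 7 rises and 2 falls of 20, ketone body enzymes 2 and 3 of 8, and the 13 protein-coding genes of the mitochondrial genome 1 rise, of *mt-Nd5* by 0.36, which was lost without untreated replicate A, C or D or lipid-treated replicate A or B (0.23 to 0.38). Among markers of other liver cells, 1 of 4 tested for stellate cells fell, 2 of 9 for endothelial cells rose and 1 fell, and 4 of 5 for cholangiocytes fell.

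Some of the largest changes fell outside these groups. *Prelp*, a leucine-rich matrix protein and one of the stellate cell markers, dropped from 14.5, 7.04, 9.77 and 9.44 CPM to 1.42, 0.901, 0.648 and 0.472 CPM (log2 fold change −3.59, SE 0.206, adjusted p = 8.59e-09). *Ivl*, involucrin, and *Sprr1a*, both precursors of the cornified envelope of skin, fell from 10.9, 21.8, 19.03 and 31.3 CPM to 0.608, 1.24, 1.70 and 4.41 CPM (log2 fold change −3.45, SE 0.208, adjusted p = 9.08e-09) and from 1091, 1142, 1164 and 1257 CPM to 399, 323, 390.4 and 519 CPM (log2 fold change −1.53, SE 0.0885, adjusted p = 8.59e-09). In the 3 genes every lipid-treated library was below every untreated one. *Smpd3*, a neutral sphingomyelinase, was 3.97-fold lower. *Steap4*, a metalloreductase of inflamed tissue, fell by 1.27, and *Tfrc*, the transferrin receptor, by 0.60, while *Hfe2*, hemojuvelin, rose 2.51-fold at 10.7 ± 2.96 CPM (SD, n = 4).

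On the other side, *Arl4d*, a small GTPase, rose from 5.33, 4.62, 3.65 and 3.99 CPM to 15.6, 17.9, 14.9 and 12.3 CPM (log2 fold change 1.79, SE 0.114, adjusted p = 1.39e-08). *Inhbe*, the hepatokine activin E subunit, rose from 3.65, 3.54, 3.72 and 3.31 CPM to 14.3, 13.6, 8.01 and 11.7 CPM (log2 fold change 1.72, SE 0.247, adjusted p = 4.42e-05), and *Sfn*, 14-3-3σ, by 1.45. *Grb10*, an adaptor that restrains insulin signalling, and *Smo*, the Hedgehog signal transducer, rose 2.47-fold and 2.55-fold. *Arvcf*, *Serpinb6a*, *Mfsd13a* and *Nt5dc2* were 3.25-fold, 2.63-fold, 2.55-fold and 2.54-fold higher, and *Myl12b* is left without a value because 2 entries share its symbol.

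The lipid response was measured a second time in cells that also received itaconate, by comparing 4 lipid + itaconate-treated with 4 itaconate-treated libraries, which share no library with the comparison above but share its model. In lipid + itaconate replicate B the 10 most abundant genes took 13.9% of the counts, against 12.1, 11.4 and 11.0% in A, C and D. Its TMM factor was 0.952, against 0.995, 1.05 and 1.04. The values of this second comparison include replicate B and are not given without it. In this comparison 2740 genes rose (23.5% of those tested) and 2743 fell (23.5%). Of the 1142 genes changed at least 1.5-fold without itaconate, 1132 had the same sign with it, which 84.7% of all genes tested did, and 1001, or 87.7%, passed the test in that direction. Over the genes changed at any size, 4203 passed in both with the same sign, which is 75.8% of those changed without and 76.7% of those changed with itaconate. *Prelp* was at −3.35, *Hspa1b* at 1.60 and *Creb3l3* at 0.95 in itaconate-treated cells, beside −3.59, 1.47 and 1.06 without itaconate. *Txnip* rose by 1.53 beside 2.44, *Acaca* by 0.82 beside 1.39, *Insig1* fell by 1.10 beside 1.38, and *Ifit1* fell by 0.77 beside 1.42. For list medians the pairs were −0.61 beside −0.96 for the interferon response, 0.040 beside −0.34 for MHC class I, −0.39 beside −0.55 for chemokines and NF-κB, and −0.50 beside −0.54 for cholesterol synthesis. The macrophage markers fell by more in itaconate-treated cells, at −0.90 beside −0.37, with 10 falls beside 7 among 12 tested.

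The difference between these responses was tested as an interaction in the same model. It passed for 1 gene (0.00857% of those tested), *Cxcl10*, and 1004 genes had an unadjusted p under 0.05. *Cxcl10* fell by 1.34 with lipid alone and by 0.87 in the presence of itaconate, a difference of 0.47 (standard error 0.0653, adjusted p = 0.0299). For *Txnip* the difference of −0.91 did not pass (adjusted p = 0.257), nor did that of 0.64 for *Ifit1* (adjusted p = 0.158). The number of such genes moved with the tool and filter, from 0 without the replicate letter to 33 with DESeq2 and 231 with no filter on low counts.

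**Figure D5:**
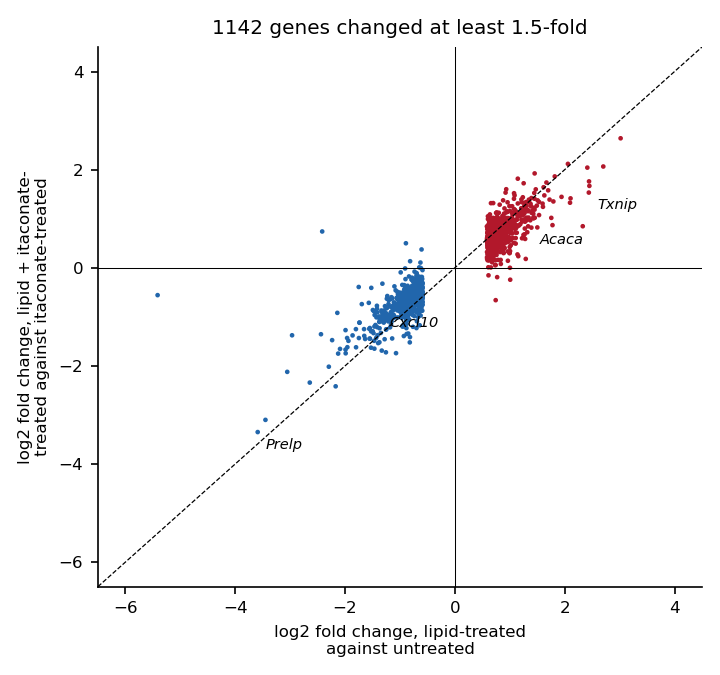
Log2 fold change with lipid in itaconate-treated cells (vertical axis) against that without itaconate (horizontal axis) for the 1142 genes changed at least 1.5-fold without itaconate, red where they rose and blue where they fell. The dashed line marks equal change, and 1132 of the 1142 points lie in the quadrants of equal sign.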

How the data were processed

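RNA of primary hepatocytes was captured as mRNA with a stranded ligation kit and sequenced. According to the submitters' processing notes and the methods, the authors demultiplexed reads with bcl2fastq 2.20, trimmed them with Cutadapt 1.18, aligned them to mm10 with STAR 2.7.0f, collected mapping statistics with Picard 2.18.26 and quantified GENCODE genes (release not given in the sources used here) with RSEM 1.3.1. The deposited values are expected counts per gene, without normalization, and 5.41% of them were not whole because RSEM shares a read among the genes it fits. The authors' other steps were not used.

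Expected counts were rounded and analysed in R 4.3.3. Genes that averaged 1 CPM or more in the series were retained, scaled with TMM factors, and tested with the quasi-likelihood test of edgeR 4.0.16, in 1 model of the 16 libraries whose terms were the treatment and the replicate letter, and Benjamini-Hochberg adjustment over the 11675 genes (threshold 0.05). Standard errors were derived from this test, as the absolute log2 fold change divided by the square root of its F statistic. CPM values use the same factors, and SDs are over 4 libraries. In the 8 libraries 1 CPM is 21.4 to 29.7 reads. Positions come from GENCODE mouse release 21 (GRCm38), which holds all 55450 identifiers. The letters pair the libraries: the deviations from the group means of the 4 untreated and lipid-treated pairs of 1 letter correlated at 0.210 to 0.396 over genes, and those of the 24 same-letter pairs of all groups at 0.144 to 0.469, against a median of −0.114 for 72 pairs of other letters. No 2 libraries of a group agreed within sampling noise.

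Gene lists came from general knowledge, not a database, and the comparison, lists and named genes were chosen with earlier results of these data known. The genes named are the 15 largest rises and falls with a mean of at least 5 CPM, an adjusted p under 0.05, 1 direction in all 4 letters and a symbol of their own, up to 3 called members per list and direction, a fixed set of 52 genes of lipid, glucose, stress and hepatocyte biology, and the marker genes. Of the 52, *Abcg1*, *Acod1*, *Cyp7a1*, *Fgf21*, *Krt19* and *Mki67* were under the filter. Other list members were named after their values were seen, some genes that these rules select were left out after their calls or signs proved to depend on an alternative, and some are not reported here. Alternatives were a model without the letter, RLE factors, library totals, filterByExpr, no filter, only the 8 libraries, DESeq2 1.42.0, limma-trend (limma 3.58.1), each of the 8 libraries left out in turn, and the fit without lipid + itaconate replicate B. For the interaction, all but the model without the letter, DESeq2 and the last were added after seeing the data.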

Additional observations from a re-analysis of the deposited data

Results flagged for a closer look

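The 4 values of a group were examined for one that stood far from the other 3 (Dixon's test), in 330 groups of the named genes other than *Marco* and *C1qb*. In 15 of them 1 library stood apart, and chance alone gives about 1 in 20 groups. Untreated replicate A held 7 of the 15. It was the highest untreated library for *Apoa5* (111 CPM), *Hal* (34.2 CPM) and *Hspa1a* (28.5 CPM), and the lowest for *C1qa* (2.43 CPM), *Hnf4a* (190 CPM), *Pdk4* (235 CPM) and *Sfn* (6.32 CPM). Even this lowest *Pdk4* value was above all lipid-treated libraries, and the high *Apoa5* and *Hspa1a* values were below them.

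Untreated replicate B stood highest for *Ccl5* (1.02 CPM), *Srebf2* (131 CPM) and *Tnfaip3* (52.6 CPM). Lipid-treated replicate A was highest for *Hspa1a* (60.1 CPM), so that the letter A library stood apart for *Hspa1a* in both groups. Lipid-treated replicate C was lowest for *Cyp2b10* (41.4 CPM), *H2-D1* (1105 CPM) and *Tapbp* (144 CPM), and lipid-treated replicate D highest for *Scd2* (3.74 CPM).

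*Cxcl10* was the gene whose response to lipid differed between cells with and without itaconate in the test of that difference, by 0.47 on the log2 scale.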

How the results depend on the processing

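Of the 165 tested genes named (*Marco* and *C1qb* are not counted), 148 passed the test, and 123 of these kept direction and call under all 17 alternatives. The other 25 kept their direction and lost the call under at least 1, 24 of them without the replicate block, and 6 of the 17 genes that did not pass did so under at least 1. Some genes were left unnamed because their call or sign was seen to change under an alternative, so these counts overstate how stable the calls were. The number of genes changed (5546) was 4149 without the replicate block and 5424 with DESeq2, and ran from 4717 to 5036 when 1 of the 8 libraries was left out. With library totals 1782 genes fell instead of 2767, and 68.5% of changed genes were higher instead of 50.1%. The lone gene with an interaction became 0 without the replicate block or with library totals, 33 with DESeq2, 231 with no filter, 7 without lipid + itaconate replicate B, 2 with RLE factors or filterByExpr, and 0 to 8 when 1 library was left out (8 without lipid-treated replicate B). The cause was not tested.

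Without the replicate block the calls of *Dhcr7*, *Scd1*, *Cd36*, *G0s2*, *G6pc*, *Pck1*, *Hal*, *Hspa5*, *H2-D1*, *Cd68* and *Alb* were among those lost. The falls dropped from 10 to 3 in fatty acid uptake, from 14 to 7 among acute phase proteins, from 10 to 3 among plasma carriers, from 9 to 3 among P450 genes, from 19 to 11 in the urea cycle and amino acid list, from 7 to 4 for the droplet and macrophage lists, from 8 to 5 for MHC class I and from 44 to 29 for ribosomal proteins. The rises dropped from 16 to 6 among proteasome subunits and from 13 to 8 among carbohydrate-responsive genes.

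When 1 library was left out, rises in the citric acid cycle went from 6 to 2 without untreated or lipid-treated replicate D and to 3 without lipid-treated replicate C. Falls among plasma carriers went from 10 to 5 without untreated replicate C and to 6 without lipid-treated replicate B, and those in the respiratory chain from 11 to 4 without untreated replicate C to 5 without untreated replicate A, to 6 without lipid-treated replicate B and to 7 without lipid-treated replicate C or D. Falls among sterol regulators rose from 5 to 8 without lipid-treated replicate B. The other counts that 1 library moved by over 1.5 times are given beside the result or had 8 or fewer genes.

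Changes of sign were found for genes that did not pass in the first place. With library totals *Apob* was at 0.037 and *Lyz2* at 0.0697, with no filter *Lyz2* at 0.0019, and without the replicate block *Csf1r* at −0.038. When 1 library was left out, *Apob* ran from −0.0944 to 0.012, *Atf4* from −0.0282 to 0.0458, *Clec4f* from −0.25 to 0.11, *Csf1r* from −0.14 to 0.24, *Ddit3* from −0.0196 to 0.16 and *Lyz2* from −0.071 to 0.0658. In the 8 libraries 1 CPM rests on 21.4 to 29.7 reads, which limits the precision of genes near that level.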

Other observations

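Some groups of genes were collected after their values were seen and are given as values only. Retinoid metabolism was lower. Of 22 genes tested, 14 fell and 3 rose (median −0.30, 0.0047 over all genes). The falls were led by *Rarb*, a retinoic acid receptor that retinoic acid itself induces (−1.47), *Cyp26a1* and *Cyp26b1*, which break retinoic acid down (−1.40 and −1.33), and *Dhrs3*, a retinaldehyde reductase (−1.11). *Bco1*, which cleaves β-carotene to retinaldehyde, rose by 1.17. In itaconate-treated cells the median was −0.32. UDP-glucuronosyltransferases, which conjugate bilirubin, steroids and drugs, fell in 12 of 16 cases and rose in 1 (median −0.30), from *Ugt2b37* at −1.0 to *Ugt2b34* at 0.27, whose call was lost without untreated replicate B (0.21) or lipid-treated replicate C (0.20). These genes are close copies that can share reads. The median with itaconate was −0.23.

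Genes of intraflagellar transport and the BBSome, which move cargo in cilia, were higher. Of 22 tested, 12 rose and 1 fell (median 0.33), with *Bbs4* at 1.10, *Ift22* at 0.77, *Bbs5* at 0.71 and *Bbs10* as the one that fell (−0.64). In itaconate-treated cells 12 rose, with a median of 0.29. Zinc finger genes with *Zfp* symbols gave 112 rises and 27 falls of 316 tested (median 0.16), highest *Zfp13* at 1.43, and a median of 0.14 with itaconate. With library totals 146 rose and 19 fell.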
